A study of Mus musculus with 7 samples.

Results

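The 10 genes described here encode proteins of base excision repair other than thymine DNA glycosylase (TDG): the DNA glycosylases Smug1, Mbd4, Neil1, Neil2 and Neil3, the AP endonuclease Apex1, the strand-break sensor Parp1, the scaffold Xrcc1, the DNA polymerase Polb and the DNA ligase Lig3. They were chosen by name with earlier results of these data known, by a rule that uses no measured value, and all 10 were found among the 22359 protein-coding genes of the GENCODE M1 annotation (mouse build mm9). The study mapped 5-formylcytosine (5fC), an oxidised form of 5-methylcytosine, by attaching biotin to its aldehyde, pulling down the tagged DNA fragments and sequencing them. All libraries came from 1 mouse embryonic stem (ES) cell line, J1 (129S4/SvJae). The wild-type group (WT, n = 2) was untransfected J1 cells on irradiated embryonic fibroblast feeders. The siRNA control group (n = 2) was J1 cells without feeders that were transfected repeatedly with a non-targeting siRNA. The TDG knockdown group (TDG KD, n = 2) was handled in the same way with a pool of siRNAs against Tdg. One library of unenriched genomic DNA served as the input for all 6 pulldowns and is used here only through the enriched domains the authors derived from it. A DNA pulldown reports neither RNA nor protein, so neither the loss of TDG nor the ES cell identity could be checked in these values, and the share of feeder DNA in the WT cultures was not measured.

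In base excision repair a glycosylase removes a damaged or modified base, an AP endonuclease cuts the DNA backbone at the resulting abasic site, and a polymerase and a ligase fill and seal the gap. TDG removes 5fC and 5-carboxylcytosine in this way, so the pathway is a route by which oxidised 5-methylcytosine can be replaced by an unmodified cytosine in ES cells. The values below are the relative 5fC enrichment over the input at the repair genes themselves, often averaged over a longer stretch of DNA. These values say nothing of absolute 5fC levels, of the genes' expression or of the activity of their products on 5fC.

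The libraries held 20.4 to 45.9 M uniquely placed reads. The program rseg had divided the genome of each library into enriched, background and unconfident domains. Here a gene was called enriched at its transcription start site (TSS) when an enriched domain reached within 1 kb of it. The level at a TSS was taken from the domains, each of which carries 1 mean of pulldown minus input reads per 100 bp bin. The domain means over TSS ±1 kb were averaged by length, the library mean was subtracted and the result was divided by depth in M reads. This is called the 5fC excess below, in reads per bin per M reads. Taking off the library mean removes any change in 5fC that is shared by the whole genome, so a global rise or fall between conditions cannot be seen in it. The library mean was 0.793 in WT 1 (45.9 M reads) and -0.277 in TDG KD 1 (20.4 M), with an input of 26.5 M. Pulldown and input reads were thus apparently not scaled to equal depth before subtraction. Where input coverage varies along the genome, taking off 1 mean does not remove this. Its part in the excess was not tested. A second measure was the percentile of that excess among the protein-coding genes of the same library. WT 1 and TDG KD 1 stood apart from the rest. WT 1, the deepest, was cut into 389620 enriched domains of median width 700 bp, whereas the medians of the others were 5900 to 24550 bp. Outside WT 1 the level at a TSS was thus often the mean of a domain wider than the window, and not a local promoter signal. The WT 1 levels are more local, and percentiles do not remove this difference. TDG KD 1, the shallowest, held 161.1 Mb of enriched and 504.9 Mb of unconfident sequence, against 475.3 to 566.2 Mb enriched and at most 6.28 Mb unconfident in the others. Levels were therefore set side by side mainly as percentiles, and counts are given with and without TDG KD 1.

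The members covered a wide range of CpG density, the substrate on which 5fC arises. Over TSS ±1 kb, Lig3 held 110 CpGs, Apex1 105, Parp1 101, Xrcc1 89, Mbd4 80, Polb 80, Neil2 59, Neil1 51, Neil3 45 and Smug1 29. Smug1 was the only member without a CpG island (CGI) by the criterion used here, a stretch of 200 bp with GC above 50% and a CpG observed to expected ratio above 0.6 in that window. The bases directly upstream of the TSS of 5 members are printed as examples from this range. Each runs 5′ to 3′ on the strand of the gene in build mm9 and stops at 300 bases or at the first annotated exon, and the CpGs are in capitals.
Neil1 (- strand, chr9:56995930-56995986): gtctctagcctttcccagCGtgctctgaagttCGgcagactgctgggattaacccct
Mbd4 (- strand, chr6:115803390-115803487): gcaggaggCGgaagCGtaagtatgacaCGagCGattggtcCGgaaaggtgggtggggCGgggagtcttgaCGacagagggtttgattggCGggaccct
Apex1 (+ strand, chr14:51544569-51544642): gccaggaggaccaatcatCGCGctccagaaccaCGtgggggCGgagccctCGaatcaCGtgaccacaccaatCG
Smug1 (- strand, chr15:102988384-102988683): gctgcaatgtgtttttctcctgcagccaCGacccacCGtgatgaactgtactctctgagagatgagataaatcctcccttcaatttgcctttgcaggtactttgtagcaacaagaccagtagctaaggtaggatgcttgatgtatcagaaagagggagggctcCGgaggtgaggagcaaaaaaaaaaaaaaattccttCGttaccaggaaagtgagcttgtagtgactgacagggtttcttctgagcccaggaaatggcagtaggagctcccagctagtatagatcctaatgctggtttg
Parp1 (+ strand, chr1:182498786-182499085): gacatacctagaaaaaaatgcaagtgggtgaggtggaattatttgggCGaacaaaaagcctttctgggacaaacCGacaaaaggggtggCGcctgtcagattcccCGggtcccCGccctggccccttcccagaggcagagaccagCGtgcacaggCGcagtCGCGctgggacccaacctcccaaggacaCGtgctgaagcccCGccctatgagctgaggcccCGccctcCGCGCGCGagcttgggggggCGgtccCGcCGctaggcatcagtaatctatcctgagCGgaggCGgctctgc
The Neil1, Mbd4 and Apex1 stretches are short because each of these genes faces a divergent neighbour, whose TSS lay 58 bp (Gm16493), 99 bp (Ift122) and 75 bp (Osgep) away. The 57 bases upstream of Neil1 held 2 CpGs and the 300 bases upstream of Smug1 held 4, whereas the 300 bases upstream of Parp1 held 21. Mbd4 had 8 CpGs in 98 bases and Apex1 had 7 in 74 bases. A 5fC value at these 3 paired TSSs belongs to both neighbours.

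At the TSS 6 of the 10 members were enriched in at least 4 libraries, with Neil1 at one end of the range and Apex1 and Lig3 at the other. Of all protein-coding genes, 10.2% were enriched in exactly 4 libraries, 21.1% in 5 and 11.9% in 6. An enriched domain reached the window of 10 of 10 members in WT 1, where 77.6% of all protein-coding genes were enriched. It reached 6 members in WT 2 (49% of all genes), 6 in siRNA control 1 (45.6%) and 6 in siRNA control 2 (40.6%). In TDG KD 1 only Mbd4 and Neil1 were enriched (15.6% of all genes), whereas in TDG KD 2 all 10 members were (56.1%). The background in WT 1 was so high that 10 of 10 there carries little information about the members. Neil1 was enriched in all 6 libraries, as were 11.9% of all genes. Xrcc1, Smug1, Neil2 and Polb were enriched in the 5 libraries other than TDG KD 1, Mbd4 in 4 libraries, Neil3 and Parp1 in 3, and Apex1 and Lig3 in 2. Thus 5 of 10 members were enriched in 5 or 6 libraries, beside 32.9% of all genes, and no member was enriched in none, beside 19.5%. Leaving TDG KD 1 aside, the same 5 members were enriched in all of the other 5 libraries, beside 31% of all genes. The members with the most CpGs were not those enriched most often, since Lig3, Apex1 and Parp1, the 3 with over 100 CpGs, were enriched in 2, 2 and 3 libraries. Over all genes no such decline was seen: 38.2% of the 5505 genes with at least 100 CpGs were enriched in 5 or 6 libraries, 39.5% of those with 70 to 99, 39.2% of those with 40 to 69 and 23.4% of those with fewer. The CpG classes were chosen after the values were seen.

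**Figure D1:**
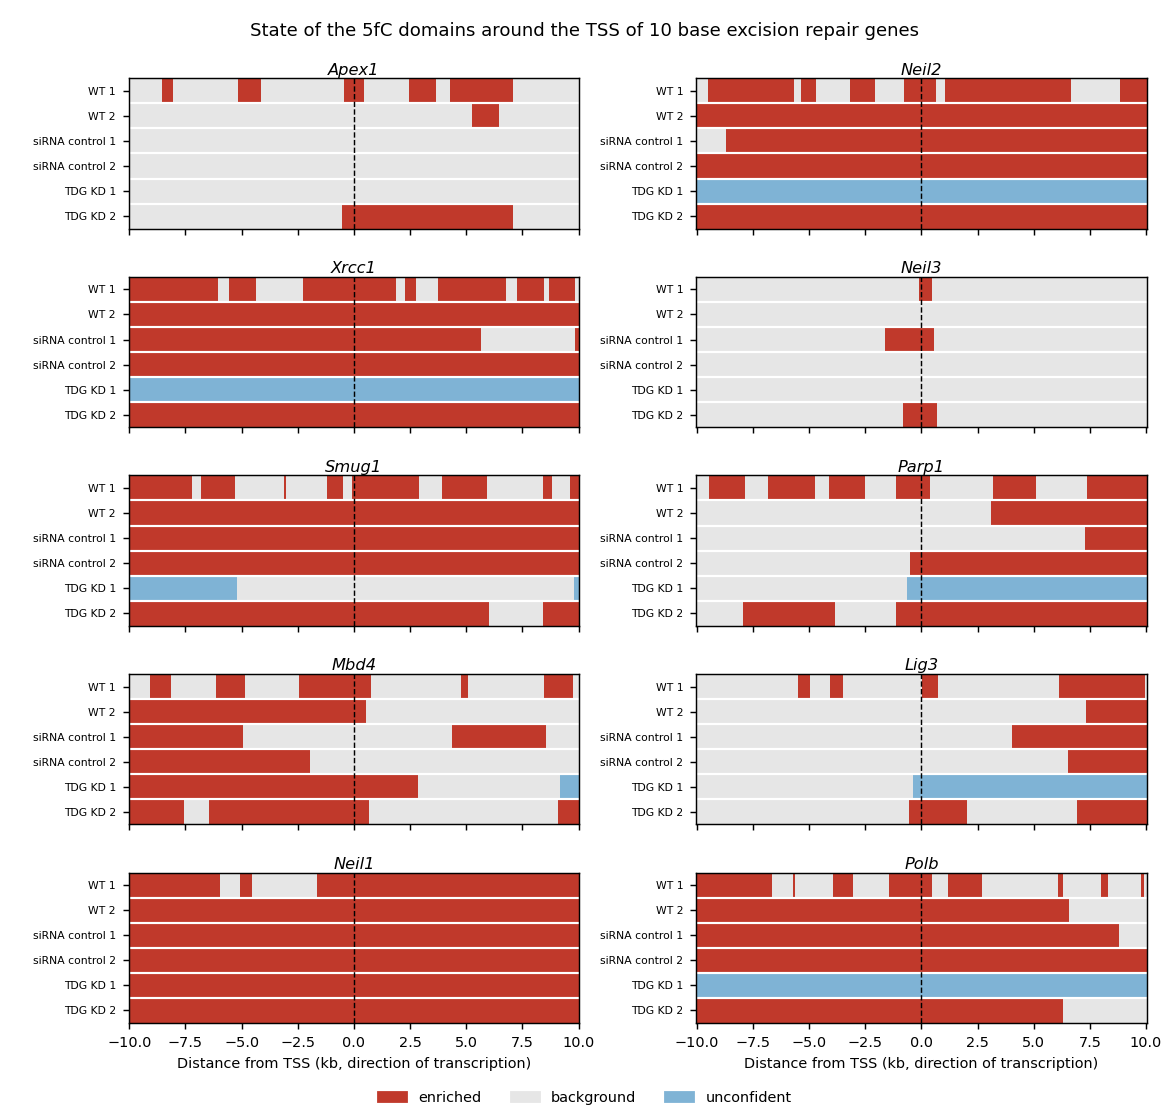
State of the rseg domains from 10 kb upstream to 10 kb downstream of the TSS of each member, in the direction of transcription, with 1 row per library (red, enriched; grey, background; blue, unconfident). Neil1 is red at the TSS in all 6 rows, Mbd4 is grey at the TSS in both siRNA control rows, and TDG KD 1 is blue at the TSS of Xrcc1, Neil2, Parp1, Lig3 and Polb.

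Intersecting the enriched domains of both replicates, as the study did to build its consensus, left 6 members in WT (Xrcc1, Smug1, Mbd4, Neil1, Neil2 and Polb; 47.3% of all genes). In the siRNA control 5 remained (Xrcc1, Smug1, Neil1, Neil2 and Polb; 34.7% of all genes). In TDG KD the consensus held only Mbd4 and Neil1 (14.9% of all genes). The TDG KD count was set by TDG KD 1, since all 10 members were enriched in TDG KD 2 alone. Of the 8 members not enriched in TDG KD 1, Xrcc1, Neil2 and Polb were unconfident over the whole window, Parp1 over 80.6% and Lig3 over 69.4% of it, and Apex1, Smug1 and Neil3 were background throughout. Unconfident sequence reached the window of 33.3% of all genes in that library. For Xrcc1, Neil2, Polb, Parp1 and Lig3 the missing call in TDG KD 1 is thus mostly an undecided state and not a measured absence of 5fC.

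Among the glycosylases, Neil1, which excises oxidised bases and can also act on abasic sites, had the highest 5fC level of the 10 in both WT libraries, in siRNA control 2 and in TDG KD 2. Its excess at the TSS was 0.0613 in WT 1, 0.0337 in WT 2, 0.0229 in siRNA control 1, 0.0164 in siRNA control 2, 0.0147 in TDG KD 1 and 0.0327 in TDG KD 2. It stood between the 88.1 and the 96.7 percentile of its library in all 6. The gene (chr9:56990607-56995929, minus strand) lay whole inside 1 enriched domain in every library. That domain was 14.6 kb wide in WT 1 and 35.9 to 45.2 kb wide in the others, and it took in the TSSs of 1 to 3 other genes, so the high level is that of a stretch of several genes.

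Smug1, which removes uracil and 5-hydroxymethyluracil, was enriched in 5 libraries although its window had the fewest CpGs of the members. Its excess was 0.0457 in WT 1, 0.0179 in WT 2, 0.0131 in siRNA control 1, 0.00855 in siRNA control 2, -0.00533 in TDG KD 1 and 0.0242 in TDG KD 2. The 5 enriched libraries placed it between the 65.8 and the 84.4 percentile, and TDG KD 1 placed it at 18.9. No other gene started inside its domain in any library, whose width was 3 kb in WT 1 and 41.2 to 122 kb in the other enriched libraries. In TDG KD 1 the gene (chr15:102983738-102988383, minus strand) lay in a 15 kb background domain bordered by unconfident sequence. Being enriched in the other 5 libraries and wholly background in TDG KD 1 was a pattern shared by 1.38% of all genes. It was singled out after the values were seen. Genes without a CGI were enriched less often than the rest, for example 32.8% against 56.6% in WT 2.

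Mbd4, which binds methylated CpGs and removes thymine or uracil opposite guanine, was the only member enriched in both WT and both TDG KD libraries and in neither siRNA control. Its excess was 0.0324 in WT 1, 0.0253 in WT 2, -0.00807 in siRNA control 1, -0.00161 in siRNA control 2, 0.0248 in TDG KD 1 and 0.0108 in TDG KD 2. Both control values lay below all 4 others. This pattern of calls was found at 93 genes, 0.416% of all, and was picked out after the values were seen. As percentiles the 6 libraries gave 66.8, 83.4, 6.94, 41.6, 98.4 and 47.3 in the same order, so that TDG KD 2, although enriched, was no higher than the median gene of its library. The calls depended on where a domain ended. The nearest enriched sequence lay 4339 bp downstream of the Mbd4 TSS in siRNA control 1 and 1962 bp upstream of it in siRNA control 2, whereas in WT and TDG KD the enriched sequence ran from the Ift122 side across both TSSs and ended within the 5′ part of Mbd4. rseg also gives each domain a score, which never exceeds 1 per bin. It was 0.561 per bin for the control 2 domain over the TSS and 0.683 for the TDG KD 2 domain, below the 0.85 to 0.906 of the other 4. In the gene itself (chr6:115790715-115803389, minus strand) the enriched share was low, from 0% to 33.1% of the span.

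Neil2, a glycosylase of oxidised bases in bubbles and single strands, was enriched in 5 libraries at moderate levels. Its excess was 0.0261 in WT 1, 0.0136 in WT 2, 0.0139 in siRNA control 1, 0.00812 in siRNA control 2, 0.0082 in TDG KD 1 and 0.0194 in TDG KD 2. These values stood between the 57 and the 73 percentile. TDG KD 1, unconfident at this TSS, fell inside that range at 68.5. The gene occupies chr14:63801280-63812378 on the minus strand.

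Neil3, a glycosylase associated with dividing cells, had the widest range of percentiles, with Mbd4 close behind. Its excess was 0.00917 in WT 1, -0.00904 in WT 2, 0.0307 in siRNA control 1, 0.00188 in siRNA control 2, -0.000176 in TDG KD 1 and 0.0304 in TDG KD 2. Its percentile ran from 6.16 in WT 2 to 98 in siRNA control 1, and within each condition 1 library was enriched and the other was background. Where it was enriched the domain was narrow, 0.6 kb in WT 1, 2.2 kb in siRNA control 1 and 1.5 kb in TDG KD 2, and no other gene started in it. In the other 3 libraries the TSS lay in a background domain of 530 to 954 kb. The score per bin of the narrow domains was 0.916, 0.602 and 0.742 in the same order. Neil3 lies at chr8:54672221-54724419 on the minus strand.

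Apex1, the main AP endonuclease, was near or below the library mean in 4 of 6 libraries in spite of its CpG-rich TSS. Its excess was 0.0174 in WT 1, 0.000625 in WT 2, -0.00404 in siRNA control 1, -0.00022 in siRNA control 2, -0.00344 in TDG KD 1 and 0.0188 in TDG KD 2. It was enriched in WT 1 and TDG KD 2 only, and even there stood at the 42.7 and the 57.9 percentile. In WT 1 the domain was 0.9 kb wide and covered the TSSs of both Apex1 and Osgep. In TDG KD 2 it was 7.6 kb wide and covered the whole gene (chr14:51544643-51546814, plus strand), which also overlaps Tmem55b. In the other 4 libraries the gene lay in background domains of 28.8 to 197 kb.

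Among the genes of the later steps, Xrcc1 and Polb had consensus enrichment at the TSS in WT and in the siRNA control, and Parp1 and Lig3 had none. For Parp1, whose product binds strand breaks and makes poly(ADP-ribose), the excess was 0.0318 in WT 1, -0.00141 in WT 2, 0.00378 in siRNA control 1, 0.00811 in siRNA control 2, 0.00236 in TDG KD 1 and 0.0234 in TDG KD 2. For Lig3, the ligase that works with XRCC1, it was 0.0124, 0.00239, -0.0026, 0.00131, 0.00354 and 0.0268 in the same order. Parp1 stood between the 40.6 and the 72.8 percentile and above the median gene in 5 of 6 libraries, and Lig3 between 35.6 and 77 and above it in 3. The Lig3 TSS itself was background in WT 1, where a 0.7 kb enriched domain began 13 bp downstream of it. TDG KD 2 was the library in which both reached their most extended enrichment at the TSS, covering 100% of the Parp1 window and 79.4% of the Lig3 window.

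Xrcc1, the scaffold that holds the polymerase and the ligase, had an excess of 0.0445 in WT 1, 0.025 in WT 2, 0.0167 in siRNA control 1, 0.00873 in siRNA control 2, 0.0113 in TDG KD 1 and 0.0257 in TDG KD 2. It stood between the 74.3 and the 83.2 percentile in all 6 libraries, TDG KD 1 included (78.3). Apart from a 4.1 kb domain in WT 1, its enriched or unconfident domain was 191 to 399 kb wide and held 8 to 16 other TSSs. The level of Xrcc1 (chr7:25332169-25358457, plus strand) in those 5 libraries is the mean of a region of many genes.

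Polb, the polymerase that fills the gap, had an excess of 0.0373 in WT 1, 0.02 in WT 2, 0.0251 in siRNA control 1, 0.0152 in siRNA control 2, 0.0113 in TDG KD 1 and 0.0303 in TDG KD 2. It ranked at the 95.3 and the 95.9 percentile in the controls and at 70.5 to 84.5 in the others. Polb (chr8:23738591-23763909, minus strand) shares its chromosome with Neil3, and genes of chromosome 8 as a whole were high. Their median excess was 0.0153 to 0.0327 (1078 genes), above that of all other genes in every library (-0.000705 to 0.0214). Among the genes of chromosome 8 alone, Polb stood at the 58.4, 52.4, 56.4, 47.2, 35.9 and 49.4 percentile in WT 1 to TDG KD 2, and Neil3 at 20, 3.48, 76.3, 6.17, 9.42 and 49.6. The part of the chromosome in their levels was not tested further.

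**Figure D2:**
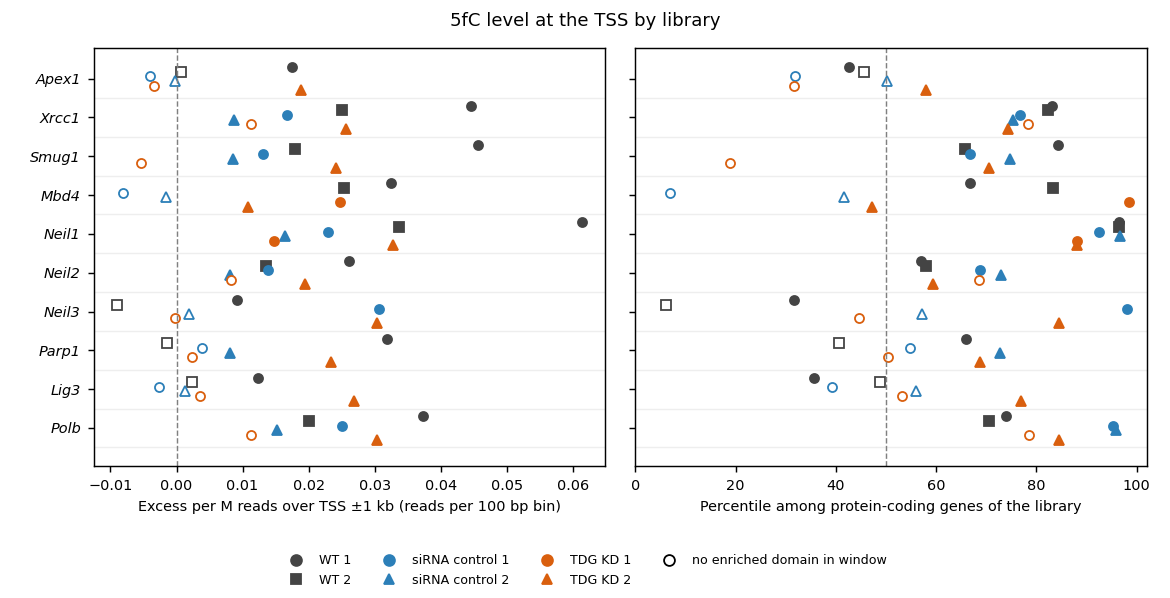
5fC excess over TSS ±1 kb (left, reads per 100 bp bin per M reads) and its percentile among the protein-coding genes of the same library (right) for each member, with 1 point per library and open points where no enriched domain reaches the window. Neil1 lies at the 88.1 percentile or above in all 6 libraries, and Neil3 spreads from 6.16 to 98 and Mbd4 from 6.94 to 98.4.

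The median member was enriched over a larger share of its span than the median gene in the 5 libraries other than TDG KD 1. The enriched share of the gene span had a median over the members of 63.4% in WT 1, 79.4% in WT 2, 80.1% in siRNA control 1, 98.1% in siRNA control 2, 0% in TDG KD 1 and 99.4% in TDG KD 2. Over all protein-coding genes the medians were 32.7%, 27.1%, 22.8%, 8.12%, 0% and 31.1%. Neil1 was enriched over 100% of its span in every library. Mbd4 and Neil3 stayed low throughout, with at most 33.1% and 11.6%. Apex1 was at 0% in 4 libraries, 19.2% in WT 1 and 100% in TDG KD 2.

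**Figure D3:**
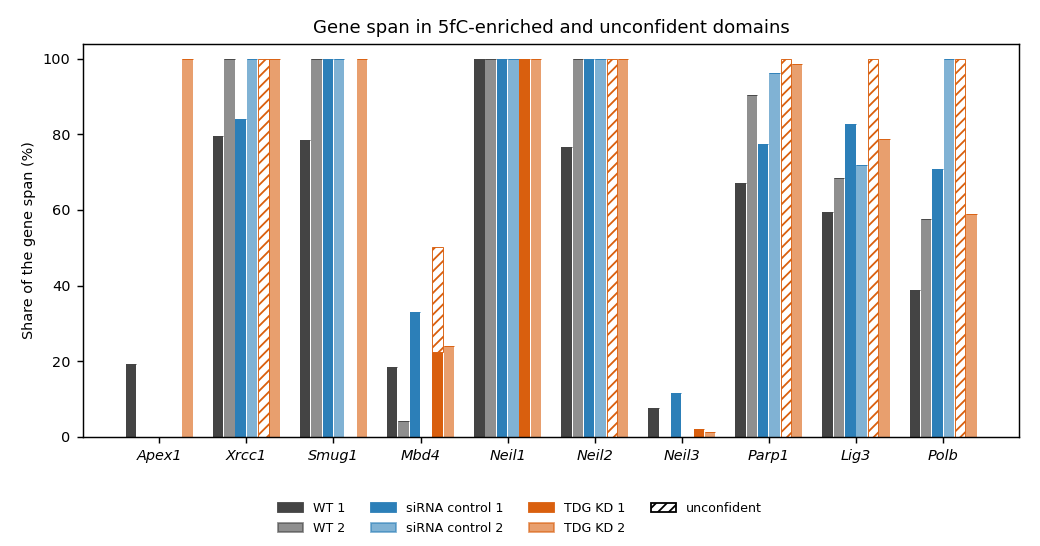
Share of the gene span of each member in enriched domains (solid bars) and unconfident domains (hatched), in percent, with 1 bar per library in the order WT 1, WT 2, siRNA control 1, siRNA control 2, TDG KD 1 and TDG KD 2. Neil1 is at 100% in all 6, and the spans of Xrcc1, Neil2, Parp1, Lig3 and Polb are wholly unconfident in TDG KD 1.

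Cutting each gene span into 5 equal sections showed that the position of the enriched sequence differed between members. Parp1 in 3 libraries and Lig3 in 5 held less enriched sequence at the 5′ end than further 3′. The first section of Parp1 was enriched over 35.4% in WT 1, 52.2% in WT 2 and 0% in siRNA control 1, and its middle section over 98.9%, 100% and 100%, whereas in siRNA control 2 and TDG KD 2 both were at 100%. In Lig3 the first section held 0% to 43.4% and the fourth section 84.6% to 100% in the 5 libraries other than TDG KD 1. The consensus of both replicates covered 65.9% of the Parp1 span and 51.4% of the Lig3 span in WT, and 73.7% and 71.9% in the siRNA control, although it touched neither TSS. Polb had enriched sequence at both ends, with its middle section at 0% in WT 1, WT 2, siRNA control 1 and TDG KD 2 and at 100% in siRNA control 2. Over the 9605 protein-coding genes of at least 20 kb the mean profile was flatter. A mean over many genes is flatter than single genes by construction, so it cannot show whether these members are unusual. The mean enriched share was 31% to 36.9% in the first section and 36.7% to 43.2% in the last in those 5 libraries. In WT 1, whose narrow domains resolve exons best, the exons were enriched over a larger share than the introns in 7 members, for example 77.9% against 52.2% in Lig3 and 100% against 77.6% in Xrcc1. The same held for 63% of the 19438 protein-coding genes with introns, so 7 of 10 is close to the background. The exons were not higher in Smug1 (69% against 100%) and Mbd4 (13.5% against 20.4%), and in Neil1 both were at 100%.

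**Figure D4:**
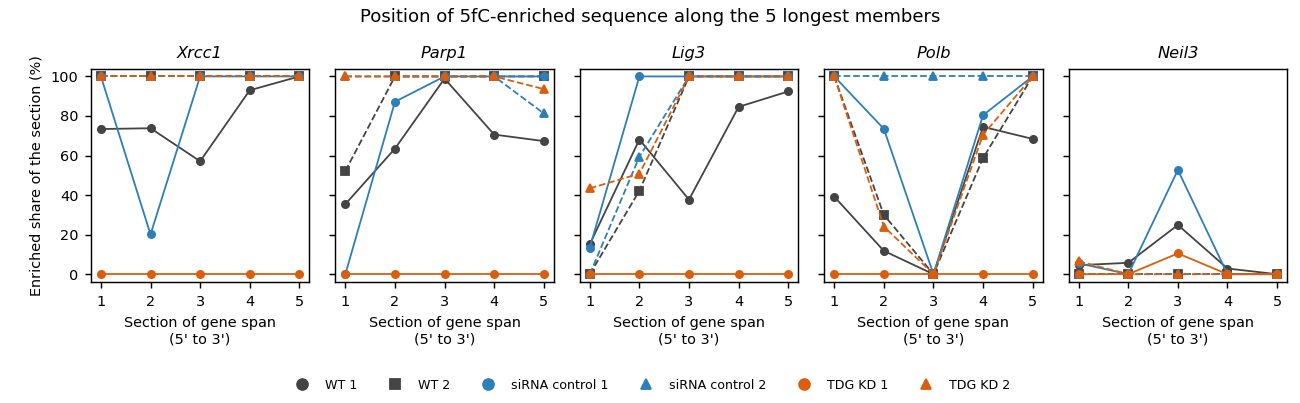
Share of each of 5 equal sections of the gene span, from the 5′ to the 3′ end, in enriched domains (percent) for the 5 longest members, with 1 line per library. Lig3 rises from at most 43.4% in the first section to 84.6% or more in the fourth, Polb dips to 0% in the middle in 4 libraries, and TDG KD 1 is at 0% in Xrcc1, Parp1, Lig3 and Polb because these genes are unconfident there.

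A list of 17 other base excision repair genes was read in the same way. Of these, 15 were enriched at the TSS in WT 1, 9 in WT 2, 12 in siRNA control 1, 11 in siRNA control 2, 5 in TDG KD 1 and 12 in TDG KD 2. The shares of all protein-coding genes were 77.6%, 49%, 45.6%, 40.6%, 15.6% and 56.1% in the same order. Mpg (alkyladenine glycosylase), Nthl1 (a glycosylase of oxidised pyrimidines) and the polymerases Pold1 and Poll were enriched in all 6 libraries. The excess of Pold1 ranged from 0.0178 in siRNA control 2 to 0.0729 in WT 1, and that of Nthl1 from 0.0159 in siRNA control 2 to 0.0451 in WT 1. Apex2, the second AP endonuclease, and Parp2, the second break sensor, were enriched in no library, with an excess of -0.00959 to 0.00276 and -0.0121 to -0.00268. Tdg, the siRNA target, was enriched at its TSS in both WT libraries and in none of the 4 siRNA libraries. It was below the median gene in every library, at the 46.5 and 41.4 percentile in WT and 2.72 to 11.6 in the siRNA libraries. How many genes share this pattern of calls was not counted.

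The effect of TDG KD was taken as TDG KD minus siRNA control, both of which were transfected and grown without feeders. No member passed the test across all genes, at the TSS or along the gene. limma with Benjamini-Hochberg adjustment at 0.05 called 0 of 22066 genes at the TSS (0%) and 0 of 22045 in the gene body (0%), with 199 and 185 genes at an unadjusted p under 0.05. Differences of the members at the TSS ran from -0.00141 (Smug1) to 0.0227 (Mbd4). Their median was 0.00492, beside 0.00258 over all genes tested, and 8 of 10 were above 0. That count was 4 of 10 when levels were ranked within each library and 7 without division by depth. With 1 library left out it ran from 2 of 10 (without TDG KD 2) to 10 of 10 (without TDG KD 1 or siRNA control 1). Most genes tested were above 0 as well in the fit reported here. Their median was -0.0398 with ranks, -0.000863 without TDG KD 2 and 0.00649 without TDG KD 1. Polb, just above 0 at 0.000696, ranked at 41% of all genes, and Neil3, just below 0 at -0.00117, at 29.1%. The Mbd4 mean was 0.0178 ± 0.00986 (SD, n = 2) in TDG KD and -0.00484 ± 0.00457 in the siRNA control. The difference was 0.0227 with an SE of 0.00774 (limma, adjusted p = 1). For Neil1 the difference was 0.00408 with an SE of 0.0113, and for Smug1 it was -0.00141 with an SE of 0.013 (limma, adjusted p = 1 for both). In the gene body the members ran from -0.00266 (Polb) to 0.0126 (Apex1), with a lowest adjusted p of 0.998. An exact permutation test of 2 against 2 libraries cannot give a two-sided p below 0.33, so no such test was made for single genes.

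The replicates of this comparison went different ways. In the titles TDG KD 1 and siRNA control 1 carry the prefix BHAM, and TDG KD 2 and siRNA control 2 the prefix EAR, which may mark a batch but is not explained. Within the EAR pair all 10 members were higher in TDG KD, by 0.0113 (Neil2) to 0.0285 (Neil3), beside 61% of all genes. Within the BHAM pair 3 members were higher, Mbd4 by 0.0329, Lig3 by 0.00614 and Apex1 by 0.000597, beside 39.2% of all genes. The other 7 were lower, down to -0.0309 for Neil3. Only Mbd4, Lig3 and Apex1 therefore kept 1 direction in both pairs, and the BHAM difference of Apex1 was very small (0.000597). The other 7 members were lower in the BHAM pair and higher in the EAR pair, beside 45.3% of all genes. At the Mbd4 TSS the difference was larger in the BHAM pair than in the EAR pair (0.0125), and at the Lig3 TSS it was smaller (0.00614 against 0.0255).

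**Figure D5:**
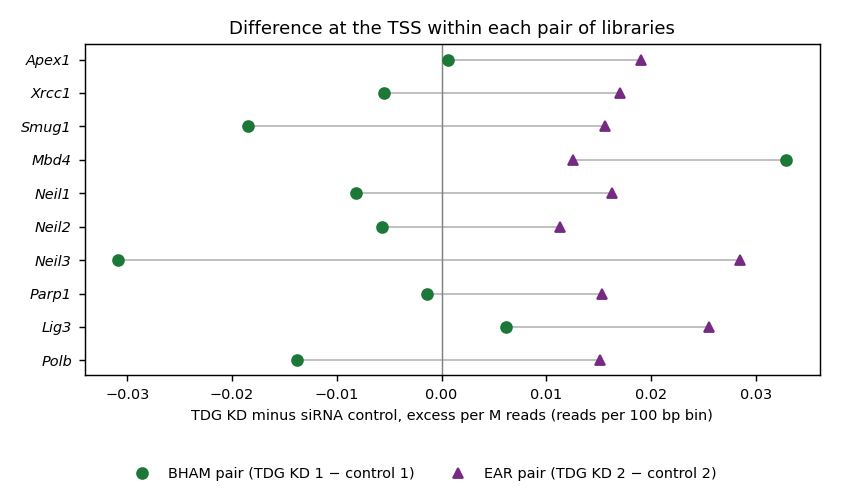
Difference in 5fC excess at the TSS (TDG KD minus siRNA control, reads per 100 bp bin per M reads) of each member within the BHAM pair (circles) and the EAR pair (triangles), 1 library per condition in each pair. All 10 triangles are above 0 and 7 circles are below it.

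The siRNA control minus WT comparison sets transfected cultures without feeders against untransfected cultures on feeders, so transfection, feeders and culture cannot be told apart. Both WT libraries carry the prefix BHAM, as does siRNA control 1, whereas siRNA control 2 carries EAR. The prefix is thus partly confounded with this comparison, and no block was fitted for it. No member passed there either. limma called 0 of 22066 genes at the TSS (0%) and 1 of 22045 in the gene body (0.00454%), with 2338 and 2655 genes at an unadjusted p under 0.05. The member differences at the TSS had a median of -0.0102, close to the -0.0109 of all genes tested, and the range was -0.0337 (Mbd4) to 0.0162 (Neil3). Without WT 1 these medians were -0.0029 for the members and -0.0018 for all genes, and without WT 2 they were -0.0227 and -0.0176. The size of the median difference thus rested mostly on WT 1. For Mbd4 the WT mean was 0.0289 ± 0.00501 (SD, n = 2), and the difference of -0.0337 had an adjusted p of 0.404 (limma). For Neil3 the adjusted p was 0.571 and for Polb, which differed by -0.00849, it was 0.625 (limma). In the gene body the members ran from -0.0279 (Neil1) to 0.00897 (Neil3), with a lowest adjusted p of 0.351.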

How the data were processed

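5fC pulldown DNA of 6 J1 ES cell libraries (WT, siRNA control and TDG KD, 2 each) and 1 input had been sequenced by the authors as single-end reads and aligned to mm9 with BWA (version 0.6.1 and CASAVA per the submitters' processing notes), keeping uniquely placed reads. The authors ran rseg against the input in 100 bp bins, separately for each pulldown. The deposited files give each domain's state and 2 scores that the authors obtained from rseg: the mean pulldown minus input reads per bin, and a domain score summed over bins. Replicates are biological according to the study. Its supplement gave the read totals used for scaling.

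Gene loci came from GENCODE M1, whose build matched the files (no domain ended past a chromosome). The TSS was the most upstream start of a gene's protein-coding transcripts. Domain values were averaged by length over TSS ±1 kb and over the gene span, the library mean was subtracted and the result divided by depth in M reads. Genes covered by domains over at least 50% of the window in every library were tested with limma 3.58.1 (R 4.3.3) on all 6 libraries in 3 groups, without covariates, two-sided, with Benjamini-Hochberg adjustment at 0.05. Shares and counts were computed with Python 3.11.15, NumPy 2.4.6 and pandas 2.3.3. The files give no counts per gene, so no counting interval was given, and depth limits precision through the number of reads per library. Alternatives were another scaling, ranks, TSS ±500 bp, a stricter threshold for enriched domains, unconfident sequence counted as enriched, the prefix as a block and leaving out each library. All 10 members were named, and of the 17 other repair genes those enriched in all 6 libraries or in none, except 1 result that is not reported here. The members and lists were chosen with earlier results of these data known.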

Additional observations from a re-analysis of the deposited data

Results flagged for a closer look

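Within the pairs of libraries, 7 of the 10 members moved in opposite directions at the TSS, lower in TDG KD than in the siRNA control in the BHAM pair and higher in the EAR pair. The BHAM differences in 5fC excess were -0.00548 for Xrcc1, -0.0185 for Smug1, -0.00813 for Neil1, -0.00572 for Neil2, -0.0309 for Neil3, -0.00143 for Parp1 and -0.0138 for Polb. The EAR differences of these genes were 0.017, 0.0156, 0.0163, 0.0113, 0.0285, 0.0153 and 0.0151 in the same order. With 1 library per condition in each pair, the difference between the pairs was not tested. Of all genes tested, 45.3% were lower in the BHAM pair and higher in the EAR pair. TDG KD 1, which belongs to the BHAM pair, is also the library with the fewest reads (20.4 M) and the most unconfident sequence (504.9 Mb), and the part of depth in these differences was not tested.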

How the results depend on the processing

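No member was called in any contrast under any alternative fit, and 87 of the alternative counts and medians were held to be unchanged and 20 to have moved. A count was unchanged when it stayed within 1.5 times of the reported value. A median enriched gene span was unchanged when it moved by less than the SD of the 2 replicate medians of its condition. In TDG KD these medians were 0% and 99.4%, so the rule could hardly mark a change there. The count of members enriched in TDG KD 1 (2) became 1 when the 25% of enriched domains of lowest value were dropped, and 7 when unconfident sequence was counted as enriched. The WT consensus (6) became 10 when either replicate sufficed, and 6 to 10 with 1 replicate left out (10 without WT 2). The TDG KD consensus (2) became 10 when either replicate sufficed, 0 when the 25% of domains were dropped, and 2 to 10 with 1 replicate left out (10 without TDG KD 1). Dropping those domains also lowered the median enriched gene span of the members to 42.6% in WT 1 and 47.2% in WT 2.

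With the library prefix as a block, limma called 2 genes at the TSS and 3 in the gene body for TDG KD minus siRNA control, where it had called 0, and no member was among them. The 1 gene called in the gene body for siRNA control minus WT became 0 with ranks, without division by depth and with only the 4 libraries compared, and 0 to 624 with 1 library left out (624 without WT 2). The direction of Neil1 in TDG KD reversed with ranks as a normal score (-0.456), with the chromosome median removed (-0.002) and in the BHAM pair (-0.00813), and it ran from -0.0049 (without TDG KD 2) to 0.0131 with 1 library left out. Smug1 reversed in the EAR pair (0.0156), without siRNA control 1 (0.000876) and without TDG KD 1 (0.0134), with -0.0162 the lowest value with 1 library left out. Polb in siRNA control minus WT reversed with ranks (1.11) and without WT 1 (0.000157), with -0.0171 the lowest value with 1 library left out. The direction of Mbd4 held in both comparisons, at 0.0157 to 0.0296 and -0.0373 to -0.0302 with 1 library left out. Its adjusted p was 0.903 to 1 and 0.0641 to 1 over the alternatives. The causes were not tested. The labels give no replicate numbers, and those used here only name the libraries, so the prefix was the only block fitted.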
